A study of Mus musculus with 8 samples.

Results

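Intercalated cells are the acid-base cells of the kidney's connecting tubule and collecting duct, and 9 genes that serve them were followed in whole kidneys with and without Keap1. The genes were chosen by name and by function: the anion exchangers Slc26a4, Slc4a1 and Slc4a9, the ammonia channels Rhbg and Rhcg, the carbonic anhydrases Car2 and Car12, the receptor Insrr and the transcription factor Foxi1. All 9 had a named probe among the 18217 genes named on the arrays. All 9 were well above background on all 8 arrays, so that each passed the filter on dim probes in both groups. Total RNA of whole kidneys from 8 mice aged 8 weeks was labelled with Cy3 and hybridised to 1-colour Agilent mouse arrays, 1 mouse per array. NEKO mice (Keap1-/-::Nrf2Flox/Flox::K5-Cre) lack Keap1, the adaptor that marks the transcription factor Nrf2 for degradation, in the whole body. K5-Cre is driven by the Keratin5 promoter and removes Nrf2 from squamous epithelium, which is not a part of the renal tubule. The control group held 1 K1 mouse (Keap1+/-::Nrf2Flox/Flox), a female, and 3 K1Cre mice (Keap1+/-::Nrf2Flox/Flox::K5-Cre). All 8 mice carried the floxed Nrf2 alleles, and every control had 1 null allele of Keap1, so the comparison was not with wild-type kidneys. Each group held 2 females and 2 males on a background mixed from 129Sv/J and C57BL/6J.

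Intercalated cells come in 2 main kinds. Type A cells secrete protons into the urine through a vacuolar H+-ATPase in the luminal membrane and return bicarbonate to the blood through the basolateral exchanger AE1, the product of Slc4a1. Type B cells do the reverse: the luminal exchanger pendrin, the product of Slc26a4, secretes bicarbonate in exchange for chloride, and AE4, the product of Slc4a9, is a basolateral transporter of the same cells. Rhbg and Rhcg let ammonia cross the cell membranes, cytosolic Car2 and membrane-bound Car12 interconvert carbon dioxide and bicarbonate, and Insrr is a receptor of the insulin receptor family that is activated by alkaline fluid. Foxi1 is a forkhead transcription factor required for the formation of intercalated cells in mice. In whole-kidney RNA, fewer cells of a type and less RNA per cell cannot be told apart.

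The sequences upstream of Slc26a4 and of Foxi1 are shown because these genes stood at opposite ends of the comparison below, with the largest and one of the smallest differences among the 9, and because Foxi1 is an upstream regulator of Slc26a4. They are taken from RefSeq on GRCm38.p6, from the 250 bases before the annotated start, without bases that lie inside the annotated span of the gene. The Slc26a4 sequence is chr12:31560056-31560234 and the Foxi1 sequence is chr11:34208090-34208339, both on the minus strand and written 5′ to 3′ along the gene. Capitals mark the longest run of letters that they share.
Slc26a4: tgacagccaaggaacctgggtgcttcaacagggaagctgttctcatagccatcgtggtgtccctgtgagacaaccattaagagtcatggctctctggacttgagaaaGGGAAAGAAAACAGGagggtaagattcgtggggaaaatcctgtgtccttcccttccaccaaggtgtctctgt
Foxi1: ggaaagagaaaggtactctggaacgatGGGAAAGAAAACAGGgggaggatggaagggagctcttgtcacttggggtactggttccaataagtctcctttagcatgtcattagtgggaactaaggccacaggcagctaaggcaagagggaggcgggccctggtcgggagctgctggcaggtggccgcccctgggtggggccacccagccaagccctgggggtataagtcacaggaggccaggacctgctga
The shared run of 15 bases, GGGAAAGAAAACAGG, begins at position -143 before the start of Slc26a4 and at -223 before that of Foxi1. Read on the strand of the gene, it was present in 2 of 32851 such windows in the RefSeq table, 0.00609%, so in these 2 alone. The run was picked from these 2 sequences as the longest that they share, so its presence in both was fixed by that choice. Its rarity elsewhere is therefore no sign of a link between the genes, and no test was made of it. The forkhead core TGTTTA was searched on both strands and had no match in either window, while 12.0% of all windows held it. The core of the antioxidant response element, TGACNNNGC, the motif through which Nrf2 acts, likewise had no match in either window, and 10.2% of all windows held it. The 2 motifs do not overlap. Windows were at hand for 4 of the 9 genes. Of the others, Rhcg had no match to either motif. The longest runs that Rhcg shared were of 10 bases with Foxi1 and 7 with Slc26a4, present in 34 and 600 of the 32851 windows. The Car12 window had 1 forkhead match, at -11. That window lies inside the annotated span of Car12, so by the rule above 0 of its bases would be printed. No match says only that these letters are not in these windows.

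Levels are log2 signals measured from the array's 75th percentile, so that 0 is a probe as bright as that percentile. Probes differ in brightness for reasons of their own, so a level was compared between mice and not between genes. Differences are NEKO minus control from a limma model that also held sex, with Benjamini-Hochberg adjustment over 13570 named genes and 6023 unnamed transcripts. An adjusted p under 0.05 was needed for a call. The deleted gene followed the labels: Keap1 was 1.77 to 1.92 in the controls and 0.06 to 0.45 in the NEKO mice, and fell by 1.63 (log2, adjusted p = 0.0046 from limma). The share of probes well above background ran from 61.8% to 65.7% over the arrays, and no spot was saturated. The number of arrays limits the precision. Females and males were on separate slides, each with both groups in equal number, so a sex effect and a slide effect cannot be told apart. On both slides the controls occupied positions 1 and 2 and the NEKO mice positions 3 and 4, so genotype and position on the slide cannot be told apart.

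None of the 9 genes was called in either direction, against 0.128% of all features called lower and 0.097% called higher. All 9 differences lay below 0, from -2.07 for Slc26a4 to -0.03 for Car2 (which was at 0.026 under quantile normalization), with a median of -0.59 where the median of all features was -0.03. At an unadjusted p under 0.05 in limma, 4 of the 9 were lower in NEKO kidneys (Slc26a4, Insrr, Rhbg and Slc4a9) and 0 were higher, where 10.6% of all features were lower and 7.37% higher. In 3 of the 9, Slc26a4, Insrr and Rhbg, every NEKO mouse lay below every control mouse, and this was so for 5.39% of all features. In 0 of the 9 did every NEKO mouse lie above every control mouse, as in 3.88% of all features. The other six genes had groups that overlapped and differences between -0.91 and -0.03. The counts depended on the processing: the adjusted calls among the 9 went from 0 to 2 (Slc26a4 and Insrr) with a normexp background correction, and to 3 (these and Rhbg) when the 2 sexes were fitted with an effect each and these were averaged.

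**Figure D1:**
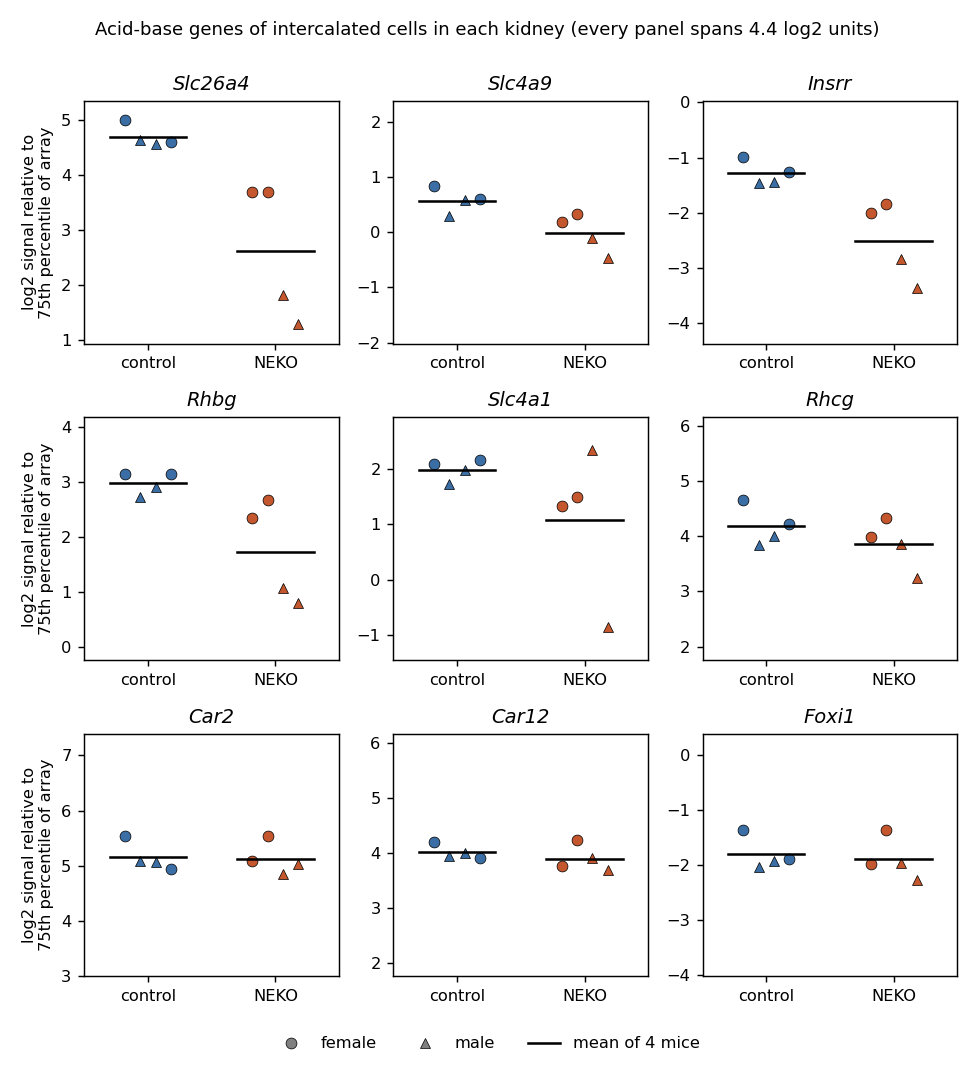
Log2 signal from the array's 75th percentile (y axis) for the 9 genes in each of 4 control and 4 NEKO kidneys (x axis); circles are females, triangles are males, and the bar is the mean of 4 mice. Every panel spans the same number of log2 units. In Slc26a4, Insrr and Rhbg all NEKO points lie below all control points, with the NEKO males lowest; in Slc4a1 the NEKO males stand at 2.34 and -0.86, above and below every other mouse; in Car2, Car12, Rhcg and Foxi1 the groups overlap.

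Slc26a4, the luminal chloride and bicarbonate exchanger of type B cells, had the largest difference of the 9. Its level was 4.98 and 4.59 in the control females, 4.62 and 4.56 in the control males, 3.68 and 3.69 in the NEKO females, and 1.82 and 1.29 in the NEKO males. The controls stood within a narrow band whatever their sex, the NEKO females lay below all of them, and the NEKO males lay below the NEKO females. The means were 4.69 ± 0.20 (SD, n = 4) for controls and 2.62 ± 1.25 (SD, n = 4) for NEKO kidneys, a log2 difference of -2.07 (standard error 0.39, 95% interval -2.99 to -1.14) or 4.19-fold lower signal, with an adjusted p of 0.081 from limma. The groups did not overlap, and an exact permutation test (two-sided), which left sex aside, gave p = 0.0286. That is the lowest value possible with 4 mice against 4, and groups without overlap always give it. Ordered by their means, control females (4.79) and control males (4.59) overlapped, whereas NEKO females (3.69) and NEKO males (1.55) were each apart from their neighbours, with 2 mice in each.

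Slc4a9, the basolateral partner of pendrin in type B cells, was lower by less. It was 0.83 and 0.60 in the control females, 0.29 and 0.58 in the control males, 0.19 and 0.34 in the NEKO females, and -0.11 and -0.47 in the NEKO males. One NEKO female lay above 1 control male, and apart from that pair the groups were separated, with the NEKO males again lowest. The difference was -0.59 (standard error 0.13, 95% interval -0.90 to -0.28), 1.5-fold lower signal, with an adjusted p of 0.11 from limma and p = 0.057 in the exact permutation test.

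Insrr, the alkali-sensing receptor, stood lower on every NEKO array. It was -0.99 and -1.25 in the control females, -1.45 and -1.44 in the control males, -2.00 and -1.84 in the NEKO females, and -2.83 and -3.36 in the NEKO males. As in Slc26a4, the controls were close together and the NEKO males lay farthest below them. The difference was -1.22 (standard error 0.21, 95% interval -1.71 to -0.73), 2.33-fold lower signal. Of the 9 genes it had the lowest adjusted p, 0.067 from limma, which is above the threshold, and p was 0.0286 in the exact permutation test. The relatives of Insrr were not called: the insulin receptor Insr differed by 0.25 (adjusted p = 0.23 from limma) and the insulin-like growth factor receptor Igf1r by 0.03 on its brightest probe (adjusted p = 0.91 from limma) and by -0.01 and -0.12 on the others.

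Rhbg, the basolateral ammonia channel, was 3.14 and 3.15 in the control females, 2.73 and 2.91 in the control males, 2.34 and 2.68 in the NEKO females, and 1.08 and 0.80 in the NEKO males. The highest NEKO female, at 2.68, lay just under the lowest control at 2.73, while both NEKO males were far below every other mouse. The difference was -1.26 (standard error 0.26, 95% interval -1.87 to -0.65), 2.39-fold lower signal, with an adjusted p of 0.099 from limma and an exact permutation p of 0.0286. Rhcg, which carries ammonia across the luminal membrane as well, was 4.67 and 4.23 in the control females, 3.85 and 4.01 in the control males, 3.98 and 4.34 in the NEKO females, and 3.85 and 3.25 in the NEKO males. Its groups overlapped, and in both groups the females tended to stand above the males. The difference of -0.33 (standard error 0.17, 95% interval -0.74 to 0.07) had an adjusted p of 0.35 from limma. The interval for Rhcg ends above the one for Rhbg, but overlaps it, and the difference between the channels was not tested.

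Slc4a1, the basolateral bicarbonate exchanger of type A cells, behaved unlike the others within the NEKO group. It was 2.09 and 2.17 in the control females, 1.73 and 1.98 in the control males, 1.34 and 1.49 in the NEKO females, and 2.34 and -0.86 in the NEKO males. Of the 8 mice, NEKO mouse 5 was the highest and NEKO mouse 6 the lowest, and both NEKO females lay below all controls. The difference was -0.91 (standard error 0.61, 95% interval -2.36 to 0.54), with an adjusted p of 0.46 from limma. It was -1.51 (adjusted p = 0.23 from limma) without NEKO mouse 5 and -0.23 (adjusted p = 0.72 from limma) without NEKO mouse 6, so a single male decided its size in either direction.

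Slc4a1 is also the band 3 protein of red blood cells, and the array cannot separate renal from red-cell transcripts of the gene. Of 10 listed erythroid genes, 8 had a probe and 4 passed the filter (Hbb-bt, Hba-a1, Alas2 and Klf1), of which 0 were called. The summed signal of these 4, in multiples of the 75th percentile of the array, was 72.57 to 390.3 in the controls, 179.2 to 245.5 in the other three NEKO mice and 714.9 in NEKO mouse 5. Alas2, the enzyme that starts haem synthesis in red-cell precursors, was 4.46 in NEKO mouse 5 and -0.96 to 2.09 in the controls. Epb42, Rhag and Rhd, genes of the red-cell membrane, were well above background on the array of NEKO mouse 5 and on no other. Rhd was at -3.05 there. The part of red-cell RNA in the level of Slc4a1 was not tested.

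**Figure D2:**
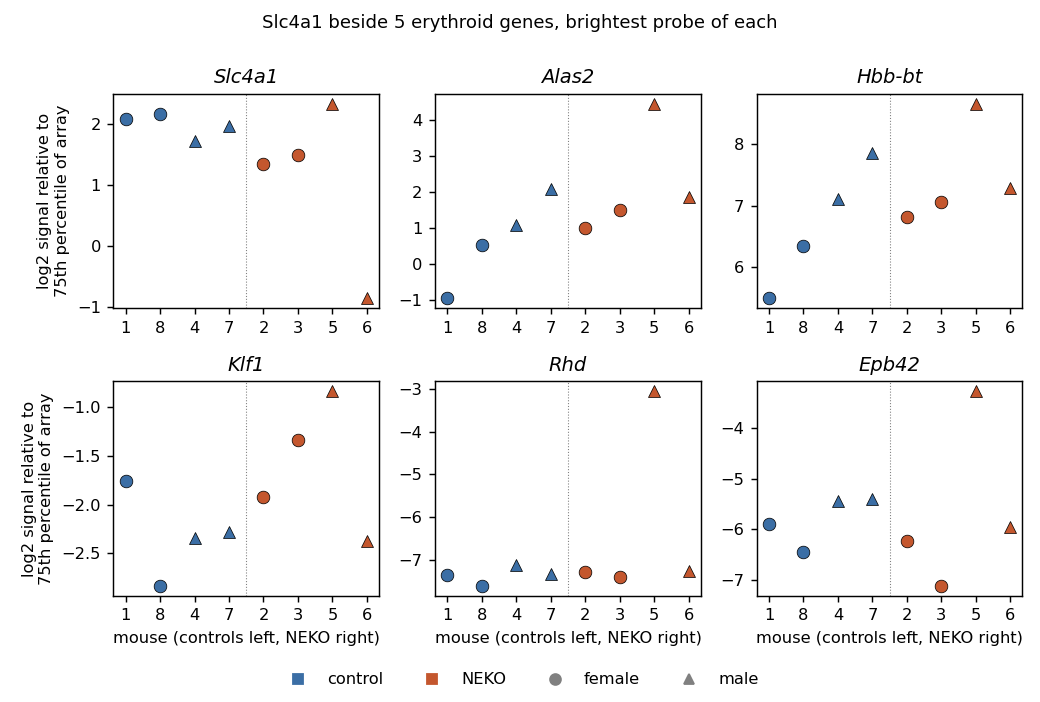
Log2 signal from the array's 75th percentile (y axis) of Slc4a1 and of 5 erythroid genes, read from the brightest probe of each, in every mouse (x axis, by mouse number, controls left of the dotted line); each panel has its own scale. NEKO mouse 5 is the highest in all 6 panels, and in Rhd and Epb42 it is the mouse whose probe was well above background.

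Both carbonic anhydrases of the list overlapped between the groups. Car2, the cytosolic enzyme that intercalated cells hold in abundance, was 5.54 and 4.93 in the control females, 5.08 and 5.07 in the control males, 5.09 and 5.54 in the NEKO females, and 4.85 and 5.03 in the NEKO males. The highest control and the highest NEKO mouse were both females, at the same level. The difference was -0.03 (95% interval -0.41 to 0.36, adjusted p = 0.95 from limma). For Car12, which is anchored in the cell membrane, the brighter of 2 probes was 3.91 to 4.20 in the controls and 3.70 to 4.23 in the NEKO mice. The difference was -0.11 (95% interval -0.42 to 0.19, adjusted p = 0.66 from limma), and its dimmer probe, fitted by itself, gave -0.03. Car2 is not particular to intercalated cells within the kidney, being present in other tubule segments too, and Car12 is likewise found outside them.

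Foxi1 was -1.37 and -1.89 in the control females, -2.03 and -1.93 in the control males, -1.98 and -1.36 in the NEKO females, and -1.97 and -2.27 in the NEKO males. The highest mice of both groups were females at nearly the same level, and the groups overlapped throughout. The difference of -0.09 (standard error 0.17, 95% interval -0.50 to 0.32) had an adjusted p of 0.80 from limma. Changes in Foxi1 inside that interval are compatible with these arrays. The interval is not a limit of detection, since Insrr at -1.22 was not called either. The intervals of Foxi1 and Slc26a4 do not overlap, which places the regulator and the exchanger, whose upstream sequences are printed above, apart in size; the difference between them was not tested.

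For each of the 9 genes the difference in males lay below that in females. Within the males, Slc26a4 fell by 3.04 (8.2-fold lower signal, adjusted p = 0.0036), Rhbg fell by 1.88 (3.69-fold, adjusted p = 0.0056) and Insrr fell by 1.65 (3.13-fold, adjusted p = 0.013), each from limma with 2 mice against 2 and the spread taken from both sexes. These 3 of the 9 genes were called lower in males, where 1.54% of all features were. Within the females the same genes differed by -1.10, -0.64 and -0.80 with adjusted p from 0.32 to 0.43 in limma, and 0 of the 9 were called, where 0.0204% of all features were. Slc4a9 differed by -0.73 in males (adjusted p = 0.088 from limma) and by -0.45 in females.

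The difference between the sexes was itself tested as an interaction of sex and genotype, and 0 of the 9 genes passed at an adjusted p under 0.05, where 0.0153% of all features did. The interaction was -1.94 (standard error 0.30, adjusted p = 0.11 from limma) for Slc26a4, -1.25 (standard error 0.23, adjusted p = 0.13 from limma) for Rhbg and -0.85 (standard error 0.28, adjusted p = 0.33 from limma) for Insrr. These were the 3 of the 9 genes at an unadjusted p under 0.05, a level reached by 10.5% of all features. For Slc4a9 the interaction was -0.28 (adjusted p = 0.78 from limma). The male difference lay at least 1 log2 unit below the female difference in Slc26a4 and Rhbg, and in 2.28% of all features. Since the males shared a slide, a difference between the sexes and one between the slides cannot be told apart.

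**Figure D3:**
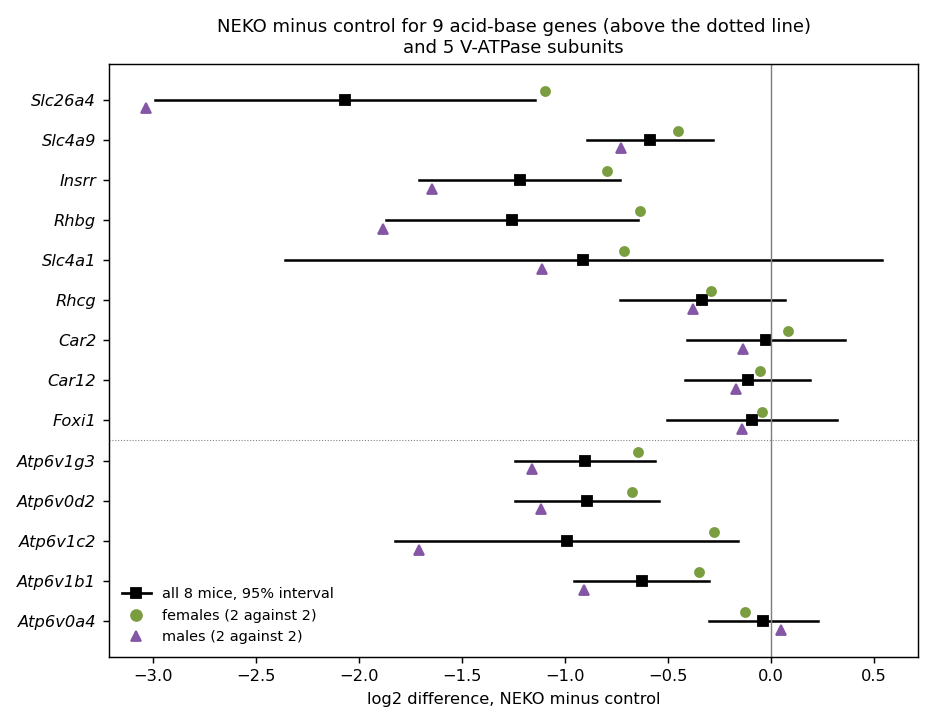
Log2 difference, NEKO minus control (x axis), for the 9 genes above the dotted line and 5 V-ATPase subunits below it; squares are all 8 mice with the 95% interval, green circles the females (2 against 2) and purple triangles the males (2 against 2). The male value lies to the left of the female value in every gene but Atp6v0a4, and the distance is widest in Slc26a4.

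The proton pump that works beside these transporters was read from 5 subunits known for intercalated cells. The share of other kidney cells in the signal of these subunits was not tested. All 5 were tested, 0 were called in either direction, and their median difference was -0.90. At an unadjusted p under 0.05 in limma, 4 of the 5 were lower, where 10.6% of all features were. Atp6v1g3 was 2.81 to 3.45 in the controls and 1.53 to 2.75 in the NEKO mice, without overlap, at a difference of -0.90 (standard error 0.14, adjusted p = 0.064 from limma). It was the 1 subunit of the 5 that was lower without overlap, where 5.39% of all features were. Atp6v0d2 differed by -0.90 (adjusted p = 0.066), Atp6v1c2 by -0.99 (adjusted p = 0.22) and Atp6v1b1, the subunit mutated in a hereditary distal renal tubular acidosis, by -0.63 (adjusted p = 0.11), all from limma and all with groups that overlapped. Atp6v0a4, the membrane subunit mutated in another form of the same disease, was 3.42 to 4.00 in the controls and 3.49 to 3.67 in the NEKO mice, with a difference of -0.04 (adjusted p = 0.87 from limma). Within the males, Atp6v1g3 fell by 1.16, Atp6v0d2 by 1.12 and Atp6v1b1 by 0.91 (adjusted p from 0.019 to 0.031 in limma), with females at -0.65, -0.67 and -0.35. These subunits were called lower in males, where 1.54% of all features were.

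Of 16 other genes reported in intercalated cells, 13 had a probe and 12 passed the filter, since Slc26a7 was well above background on 0 of the 8 arrays. None of the 12 was called, and the median difference was -0.29. At an unadjusted p under 0.05 in limma, 5 were lower and 0 higher, where 10.6% of all features were lower and 7.37% higher. Atp4a, a subunit of the H+/K+-ATPase that also secretes protons, was -1.74 to -0.28 in the controls and -3.18 to -1.43 in the NEKO mice, a difference of -1.49 (standard error 0.20, adjusted p = 0.054 from limma). Avpr1a, a vasopressin receptor found in intercalated cells, was the only gene of the 12 with no overlap, at -0.80 to -0.31 in the controls and -1.64 to -1.01 in the NEKO mice, a difference of -0.87 (standard error 0.14, adjusted p = 0.064 from limma). Among all features, 5.39% were lower without overlap. Aqp6, a channel of intracellular vesicles in type A cells, was called lower within the males (adjusted p = 0.029 from limma), where the NEKO values were -3.12 and -5.33 against -0.36 and -0.13. The lower of these, in NEKO mouse 6, was not well above background, so the size of the fall was measured in 1 of the 2 NEKO males. Over all 8 mice Aqp6 had an adjusted p of 0.20 from limma. By contrast, Tfcp2l1, a transcription factor of the collecting duct, was 3.81 to 4.23 in the controls and 3.92 to 4.25 in the NEKO mice (difference 0.09, adjusted p = 0.64 from limma), and the chloride channel subunit gene Bsnd differed by 0.08 (adjusted p = 0.83 from limma).

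The wider families of the 9 genes were read in the same fit. Of 11 other carbonic anhydrases tested, 1 was called, where 0.225% of all features were called in either direction. This was Car8, a relative without catalytic activity, which rose by 1.27 (standard error 0.16, adjusted p = 0.049 from limma). It was -3.06 to -2.44 in the controls and -1.79 to -1.38 in the NEKO mice, without overlap and with values of 1.10 in females and 1.43 in males. A second, dimmer probe of Car8, above background on 3 of 4 control arrays, gave 2.02 (adjusted p = 0.25 when each probe was fitted by itself in limma). Car7 had groups that did not overlap, with a difference of 0.39 (adjusted p = 0.16 from limma), and the other nine lay between -0.72 and 0.29. Car8 and Car7 were the 2 of the 11 that were higher without overlap, where 3.88% of all features were. Of 7 other Slc4 transporters tested, 0 were called and 1, Slc4a5, was lower without overlap, at -0.72 (adjusted p = 0.14 from limma). Among all features, 5.39% were lower without overlap. Slc4a11, a proton-conducting member, differed by -1.57 (adjusted p = 0.21 from limma), with -0.28 in females. In both NEKO males it was not well above background. With each NEKO array taken at its lowest signal among well detected probes, its signal within the males was at least 4.0-fold lower. Its call within the males (adjusted p = 0.017 from limma) rests instead on the measured difference of -2.85, which uses the values below that limit. Slc4a7 differed by -1.01 on its brightest probe and by 0.24 on each of the dimmer ones, so its probes disagreed in direction. Of 5 other Slc26 exchangers tested, 0 were called, and their differences lay between -0.41 and 0.38, none near that of Slc26a4.

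Acid-base work in the proximal tubule uses other genes, and of 7 tested 0 were called, with a median difference of -0.01. Slc38a3, the glutamine carrier that feeds ammonia production, had groups that did not overlap: it was -0.63 to 2.04 in the controls and 2.67 to 3.95 in the NEKO mice, a difference of 2.30 (standard error 0.58, adjusted p = 0.14 from limma), and within the males it rose by 3.59 (adjusted p = 0.018 from limma). It was the 1 gene of the 7 that was higher without overlap, where 3.88% of all features were. The bicarbonate exit transporter Slc4a4 differed by -0.01 and the membrane-bound enzyme Car14 by 0.07. Glud1, glutamate dehydrogenase, was 5.73 to 6.25 in the controls and 6.12 to 6.59 in the NEKO mice (difference 0.43, adjusted p = 0.16 from limma), and the proximal enzyme Car4 differed by -0.56 (adjusted p = 0.17 from limma).

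Neighbouring cells of the tubule were read from marker lists, as medians over each list. The 9 principal cell genes had a median difference of -0.22 and 0 called: Aqp2, the vasopressin-regulated water channel, differed by -0.22 (adjusted p = 0.35 from limma), and Scnn1b, a sodium channel subunit, by -0.76 (adjusted p = 0.067 from limma). The 6 genes of the distal convoluted and connecting tubule had a median of -0.69 with 0 called. Of these, 4 were lower at an unadjusted p under 0.05 in limma, where 10.6% of all features were. Among them was Slc8a1, the sodium and calcium exchanger, at -0.98 without overlap (adjusted p = 0.083 from limma). The 6 genes of the thick ascending limb had a median of -0.25 with 0 called, and Cldn10, at -0.23, had groups that did not overlap. Lower at an unadjusted p under 0.05 in limma were 3 of these 6 and 2 of the 9 principal cell genes, where 10.6% of all features were. The 8 proximal tubule genes had a median of 0.05 with 0 called, Slc5a2 being lower without overlap (-0.43) and Slc22a8 higher without overlap (0.82). Among all features, 5.39% were lower without overlap and 3.88% higher. Within the males, some genes of these neighbouring cells were called lower too, where 1.54% of all features were. Hsd11b2, the enzyme that guards the mineralocorticoid receptor in principal cells, fell by 1.46, Scnn1b by 0.95 and Slc8a1 by 1.32. In the thick ascending limb the potassium channel Kcnj1 fell by 0.94 and the prostaglandin receptor Ptger3 by 1.31 (all with adjusted p from 0.010 to 0.034 in limma). The other principal cell, distal and thick ascending limb genes were not called in males. Their male differences lay on both sides of 0, from -2.03 for Aqp4 to 0.64 for Gata3. Signals were also summed over each list in multiples of the 75th percentile. The proximal tubule was 514 to 655.3 in the controls and 576.1 to 663.8 in the NEKO mice. In the same order, the thick ascending limb was 322.6 to 375.6 and 220.5 to 338.8. Principal cell genes were 62.16 to 77.12 and 46.46 to 68.62, and distal genes 40.61 to 86.42 and 44.1 to 78.39. The intercalated V-ATPase subunits were 25.5 to 38.01 and 16.51 to 26.6. The 12 other intercalated cell genes were 21.48 to 30.45 and 22.03 to 28.56. A sum is weighted to the brightest probe of its list. That was Tfcp2l1 among the 12 (means 4.04 in controls and 4.13 in NEKO mice) and Calb1 among the distal genes (5.53 and 5.54). Overlap of these 2 sums therefore says little of the dimmer genes.

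Genes of the urothelium, which lines the renal pelvis, had their highest summed signal in the NEKO males, the mice in which Slc26a4, Insrr, Rhbg and Slc4a9 were lowest. All 7 listed genes were tested and 0 were called. At an unadjusted p under 0.05 in limma, 5 were higher, where 7.37% of all features were. Without overlap, 2 were higher (Upk3b at 0.78 and Krt5 at 1.85), where 3.88% of all features were. Upk1a was the 1 gene lower without overlap, where 5.39% of all features were. This was on its brighter probe (-0.71), while its dimmer one was at 0.92. Their summed signal was 2.317 and 3.182 in the control females, 1.245 and 1.924 in the control males, 2.686 and 3.152 in the NEKO females, and 6.148 and 5.979 in the NEKO males. Within the males Upk2, a uroplakin of the urothelial surface, rose by 3.24 (adjusted p = 0.0052 from limma). Upk1b rose by 2.52, Upk3a by 2.12 and Upk3b by 0.98 in males (adjusted p from 0.017 to 0.042 in limma). Krt5, Krt20 and Upk1a were not called in males, with Upk1a at -0.20 on its brighter probe. The 6 macrophage genes tested summed to 4.229 to 5.519 in the controls and 3.993 to 7.37 in the NEKO mice, and the 5 lymphocyte genes tested to 0.3052 to 0.4366 and 0.3432 to 0.5901. Within the males the macrophage gene Ms4a7 rose by 2.55 (adjusted p = 0.023 from limma) and Cd3g, a part of the T cell receptor complex, by 1.20 (adjusted p = 0.022 from limma), while in females they differed by 0.11 and -0.64. The part of these cells in the lower values of the 9 genes was not tested.

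**Figure D4:**
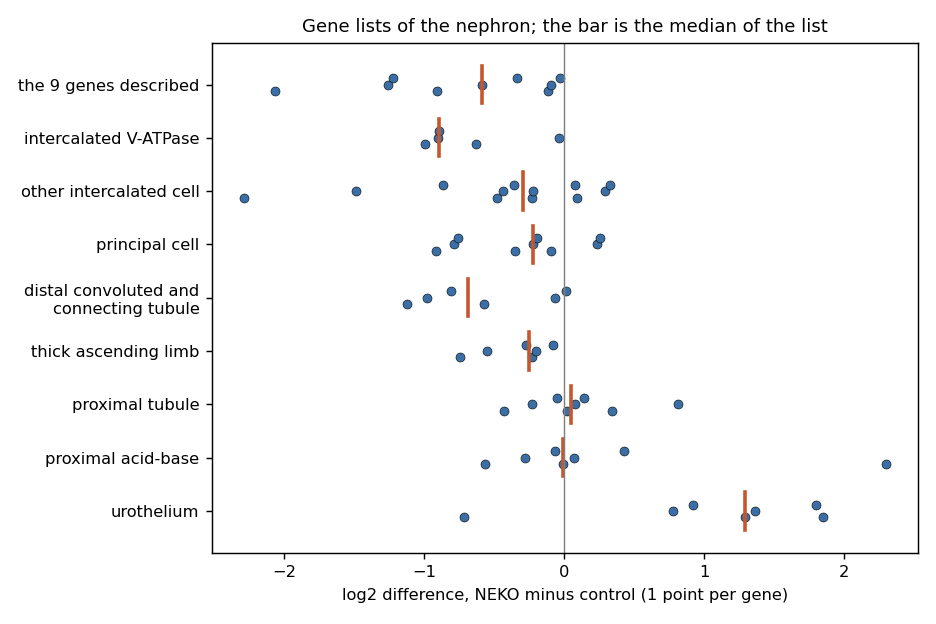
Log2 difference, NEKO minus control (x axis), of each tested gene in 9 lists (y axis), 1 point per gene, with the vertical bar at the median of the list. The 9 genes described lie at or below 0 with a median of -0.59, the V-ATPase subunits have a median of -0.90, the proximal tubule genes sit around 0.05, and 6 of the 7 urothelial genes lie above 0.

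Genes whose course over the 8 arrays was nearest to each member were found by the root mean square distance between log2 profiles, each centred on its own mean. For Slc26a4 the nearest of all named genes were Fam243 (0.183), Ptgds (0.204) and Il1f5 (0.272), where the median named gene was at 1.30. For Slc4a9 they were Tmem213 (0.0618), Cd164l2 (0.086) and Gper1 (0.101), with the median gene at 0.432. Rhbg was nearest to Prom2 (0.0779), Rapsn (0.102) and Rasl10a (0.148), and Insrr to Pgam2 (0.113), Mfsd6l (0.136) and Slc16a7 (0.154). For Slc4a1 the nearest were Hormad1 (0.443), Guca2a (0.444) and Calcr (0.494), with the median gene at 0.976. For the remaining genes the nearest profiles were those of Irs1, Npm2 and Scnn1g for Foxi1, of Adra2a, Hk1 and Ppp1r3f for Rhcg, of Pacsin2, Traf3ip2 and Inpp5b for Car2, and of Fstl5, Atp7b and Mynn for Car12. No member was among the nearest 3 of another.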

How the data were processed

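Kidney RNA of 4 NEKO and 4 control mice was measured on 8 arrays, 1 mouse each, grouped by the genotypes in the sample labels. The authors deposited Agilent Feature Extraction output with an intensity per spot, in which the processed signal is already background-subtracted, and a matrix of log2 values. Differences between arrays showed that matrix to be the same signal on the 75th percentile scale with each probe centred (column medians -0.0384 to 0.076); it was used as an alternative.

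Values were computed as log2 of the processed signal less the 75th percentile over non-control probes on the same array. Outlier spots were left out, 73 to 172 of 43379 per array, and spots of 1 probe were averaged. A probe was kept if 4 or more of the 8 arrays had it well above background and 6 or more gave a value, and the brightest kept probe stood for its gene. Transcript accessions were matched to RefSeq: 26690 of 41174 probes were named, giving 18217 genes. Groups were compared in limma 3.58.1 (R 4.3.3; lmFit, eBayes) with genotype and sex, adjusted by Benjamini-Hochberg over all 19593 features, with an interaction in a second model, and by exact permutation for single genes. The procedure was tested on simulated data.

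The 9 genes, the lists and the tests were chosen with earlier results of these data known. The genes named are those 9, list members called or without overlap, Keap1 and the 3 nearest profiles of each; other list members were named after their values were seen. Members of the erythroid list that are not named are not reported here. Alternatives were a normexp correction with an offset of 50 on the median spot signal, quantile and median scaling, 2 filters on dim probes, 2 ways to read a gene's probes, a trended robust eBayes, weights for the arrays, no sex term, the slide as a random block, the effect averaged over the sexes, each sex alone, the methods' comparison with and without adjustment, an adjusted p under 0.01, the deposited matrix and each mouse left out.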

Additional observations from a re-analysis of the deposited data

Results flagged for a closer look

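Dixon's ratio, the gap between an extreme mouse and the next divided by the range of its group of 4, was computed for 52 groups, and chance passes about 1 group in 20. It passed the 95% critical value for 4 mice in 2 of them. For Slc26a4 in the controls the ratio was 0.853, because control mouse 1, a female and the only control without K5-Cre, stood at 4.98 while the other three lay at 4.56 to 4.62. Without that mouse the Slc26a4 groups were still apart. For Atp12a, a subunit gene of the colonic type of H+/K+-ATPase, the ratio in the NEKO mice was 0.917, because NEKO mouse 5, the mouse with the highest erythroid signal, stood at -3.15 and the others at -4.20 to -4.11.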

How the results depend on the processing

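No paired analysis was possible because the replicate numbers in the labels run over both groups and none is shared. The 9 genes had 0 calls lower. With normexp there were 2 (Slc26a4, -2.12, adjusted p = 0.048; Insrr, -0.88, adjusted p = 0.036; limma), with 2 V-ATPase subunits and 2 other intercalated cell genes. With an effect fitted for each sex and these averaged there were 3, 3 and 2; by the methods' comparison without adjustment 3 (Slc26a4, Insrr and Slc4a9), 1 and 2; and within the males 3 of the 9 genes. With a trend and robust, 1 V-ATPase subunit and 1 other intercalated cell gene were called, and with array weights 1 other intercalated cell gene. With each mouse left out in turn, calls were 0 to 0 among the 9 genes and the V-ATPase subunits and 0 to 1 among the other intercalated cell genes (Atp4a, without NEKO mouse 2 or 3), and 3 to 4 of the 9 genes had no overlap, against 2 with quantile normalization and 4 with normexp. Car2 turned to 0.026 with quantile normalization and 0.082 within the females. With each mouse left out Car2 ran from -0.17 to 0.074 (above 0 without control mouse 1, NEKO mouse 2 or NEKO mouse 5) and Foxi1 from -0.22 to 0.022 (above 0 without control mouse 1 or NEKO mouse 2). The causes were not tested. Over 23 alternatives the differences of the other seven genes of the 9 kept their sign, with Slc26a4 at -2.34 to -1.77 (adjusted p from 0.0041 to 0.43), Insrr at -1.36 to -0.88 (0.014 to 0.42) and Rhbg at -1.45 to -1.08 (0.0078 to 0.47). No call higher and no sex interaction among the 9 appeared in the alternatives run.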
